A study of Homo sapiens with 12 samples.

Results

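The cyclins that drive the cell cycle were measured in leukemia cells exposed to Ara-C (cytarabine, a nucleoside analogue that is built into DNA and stops its synthesis). The set holds 9 genes, namely the D-type cyclins CCND1, CCND2 and CCND3, the E-type cyclins CCNE1 and CCNE2, the A-type cyclins CCNA1 and CCNA2, and the B-type cyclins CCNB1 and CCNB2. They were taken by the gene symbol that the scanner tables give for each probe, which found 14 of the 48800 probes. Of these, 12 were detected on at least 3 of the 12 arrays, and all 9 genes were among the 11183 genes tested. The probe that stood for each gene was detected on all 12 arrays.

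The arrays formed 4 groups of 3, and the labels name the cells as Reh, a line established from a B-cell precursor leukemia. In the first group the cells received Ara-C for 48 h together with HS-5 cells, an established human bone marrow stromal line, here written HS5. In the next they received Ara-C for 48 h with human stromal cells called HS, which the labels do not describe further. The remaining groups were cells given Ara-C for 48 h alone and untreated cells. The labels call the samples independent triplicates and state no dose of Ara-C. Stroma was always combined with Ara-C. An effect of stroma by itself and its effect under Ara-C therefore cannot be told apart.

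Levels are normalized log2 intensities of Illumina HumanHT-12 v3 arrays, and a difference of 1 on this scale is a factor of 2. Within a group, arrays correlated across genes at 0.992 to 0.994, and no array stood apart. The 12 arrays were positions of 1 chip, on which a group took 3 neighbouring positions. Group and position cannot be told apart. In part the transcripts went against the label. Of 16 markers of B-cell precursors 11 were tested, and 4 were detected on none of the 12 arrays, CD22, PAX5 and VPREB1 among them. Others went with the label. In untreated cells 10 of the 16 were detected on all 3 arrays, with DNTT at 11.30 ± 0.09 and CD79B at 10.50 ± 0.04 (SD, n = 3). Of 12 markers of granulocyte precursors, 11 were detected on all 3 arrays of each group, with MPO, the myeloperoxidase gene, at 15.32 ± 0.13 in untreated cells (SD, n = 3).

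Cyclins are the regulatory subunits of the cyclin-dependent kinases (CDKs), and their levels switch these kinases on in turn. D-type cyclins with CDK4 or CDK6 begin the phosphorylation of the retinoblastoma protein RB, which frees E2F transcription factors. E-type cyclins with CDK2 carry the cell into S phase, A-type cyclins act through S phase and G2, and B-type cyclins with CDK1 bring about mitosis. CCNE1 and CCNE2 are known E2F targets, while CCNA2, CCNB1 and CCNB2 are repressed in resting cells and released in S and G2 phase.

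Cells given Ara-C alone had more RNA of 6 of the 9 cyclins than untreated cells, and none of the 9 fell. CCNA1 and CCNE2 had the largest changes, at 9.13-fold and 7.45-fold. CCND1 was higher by 3.29-fold, CCNE1 by 3.12-fold, CCND3 by 1.76-fold and CCNB2 by 1.26-fold. CCND2, CCNA2 and CCNB1 did not pass the test. Adding HS stroma to Ara-C lowered 3 cyclins, CCNA1, CCNE1 and CCNE2, and on adding HS5 stroma CCNA1 was the only one of the 9 called, lower by 1.71-fold. That call was lost under 4 of 23 alternatives, namely a threshold of 0.01 and fits that each left out 1 array. A gene was called where its Benjamini-Hochberg adjusted p in the limma model of all 12 arrays was under 0.05.

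The share of all tested genes called is the background for these counts. Against untreated cells, Ara-C changed 51.8% of the 11183 genes, with 25.5% higher and 26.3% lower, beside 6 of 9 cyclins higher. Ara-C with HS changed 42.1% of genes against Ara-C alone, with 20.5% lower, beside 3 of 9 cyclins lower. Ara-C with HS5 changed 0.903% of genes against Ara-C alone, with 0.376% lower, beside 1 of 9 cyclins lower. The share of cyclins called was close to that of all genes with HS, and each cyclin makes 11.1% of the 9. On adding HS5, 0.528% of genes were higher, beside none of the 9 cyclins. The median log2 change of the 9 cyclins was 0.82 with Ara-C, -0.08 on adding HS and -0.09 on adding HS5. For all genes these medians were -0.03, 0.01 and -0.00. The arrays of the compared groups did not overlap for 6 of 9 cyclins with Ara-C, beside 60.0% of all genes. They did not overlap for 3 of 9 on adding HS, beside 52.3% of genes. In bulk RNA a change in the share of cells that express a gene and a change in its RNA per cell cannot be told apart.

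**Figure D1:**
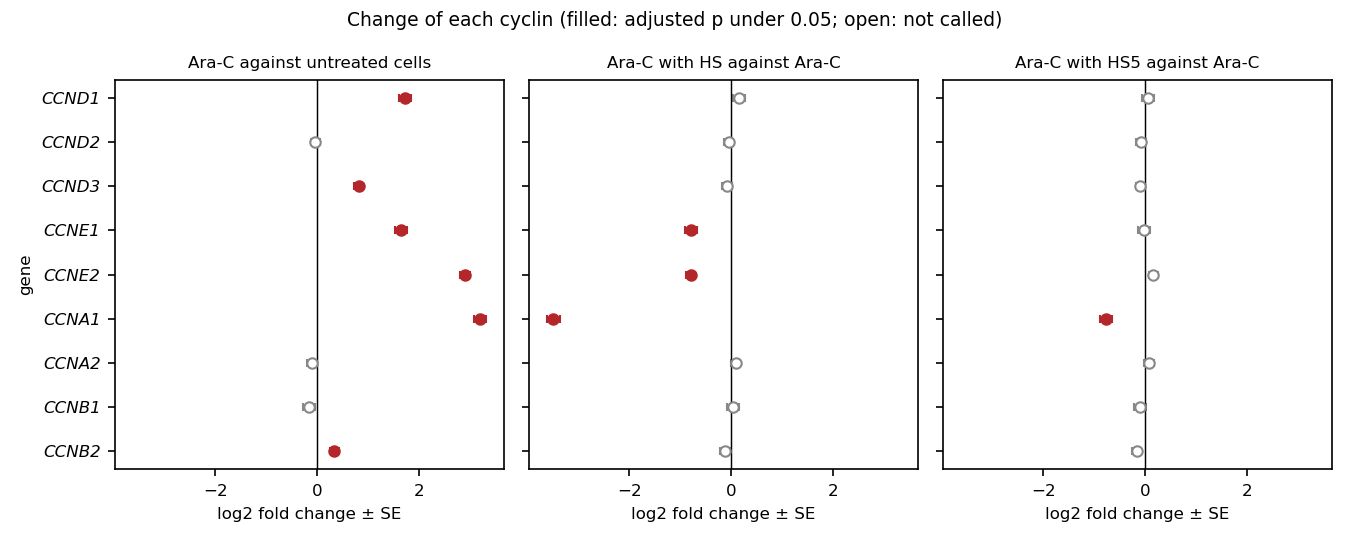
Log2 fold change with its standard error (horizontal axis) of each of the 9 cyclins (vertical axis) in 3 comparisons, Ara-C against untreated cells, Ara-C with HS against Ara-C, and Ara-C with HS5 against Ara-C, 3 arrays a group. Filled red points passed an adjusted p of 0.05 and open grey points did not. With Ara-C 6 genes lie right of 0, with HS added 3 lie left of it, and with HS5 added only CCNA1 passed.

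Among the D-type cyclins, which start the G1 phase, CCND1 and CCND3 were higher in every Ara-C group than in untreated cells, and no difference was called for CCND2. CCND1 (probe ILMN_1688480) had levels of 9.71, 10.04 and 9.83 with Ara-C and HS5, 9.93, 10.12 and 9.83 with Ara-C and HS, and 9.94, 9.84 and 9.64 with Ara-C alone. In untreated cells it had 8.03, 8.24 and 7.98. The 3 treated groups overlapped each other, and all 9 of their arrays lay above the 3 untreated ones. CCND1 was higher with Ara-C by 1.72 (SE 0.12, limma adjusted p = 1.2e-07). Adding HS changed it by 0.15 (95% interval -0.11 to 0.41) and adding HS5 by 0.05 (-0.21 to 0.31), and neither change was called.

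CCND3 (ILMN_1668721), a D-type cyclin known for its role in lymphoid precursors, had the smaller rise of the pair. Its levels were 13.82, 13.96 and 13.93 with Ara-C and HS5, 13.97, 13.89 and 13.88 with Ara-C and HS, and 14.08, 13.86 and 14.06 with Ara-C alone, against 13.07, 13.25 and 13.23 in untreated cells. Again the treated groups overlapped each other and none reached down to the untreated arrays. The difference between Ara-C and untreated cells was 0.82 (SE 0.09, limma adjusted p = 9.7e-06). The intervals of its change ran from -0.28 to 0.12 on adding HS and from -0.29 to 0.10 on adding HS5, so a 1.5-fold change in either direction lay outside both.

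CCND2 (ILMN_2067656) is the D-type cyclin that growth signals raise in B cells. It averaged 12.96 ± 0.08 with Ara-C and HS5, 13.00 ± 0.11 with Ara-C and HS, 13.05 ± 0.07 with Ara-C alone and 13.09 ± 0.09 in untreated cells (SD, n = 3 each). The groups overlapped throughout, and Ara-C minus untreated was -0.04 with a 95% interval of -0.23 to 0.16. Its second probe (ILMN_1667081) gave -0.06, and no comparison of either probe was called.

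**Figure D2:**
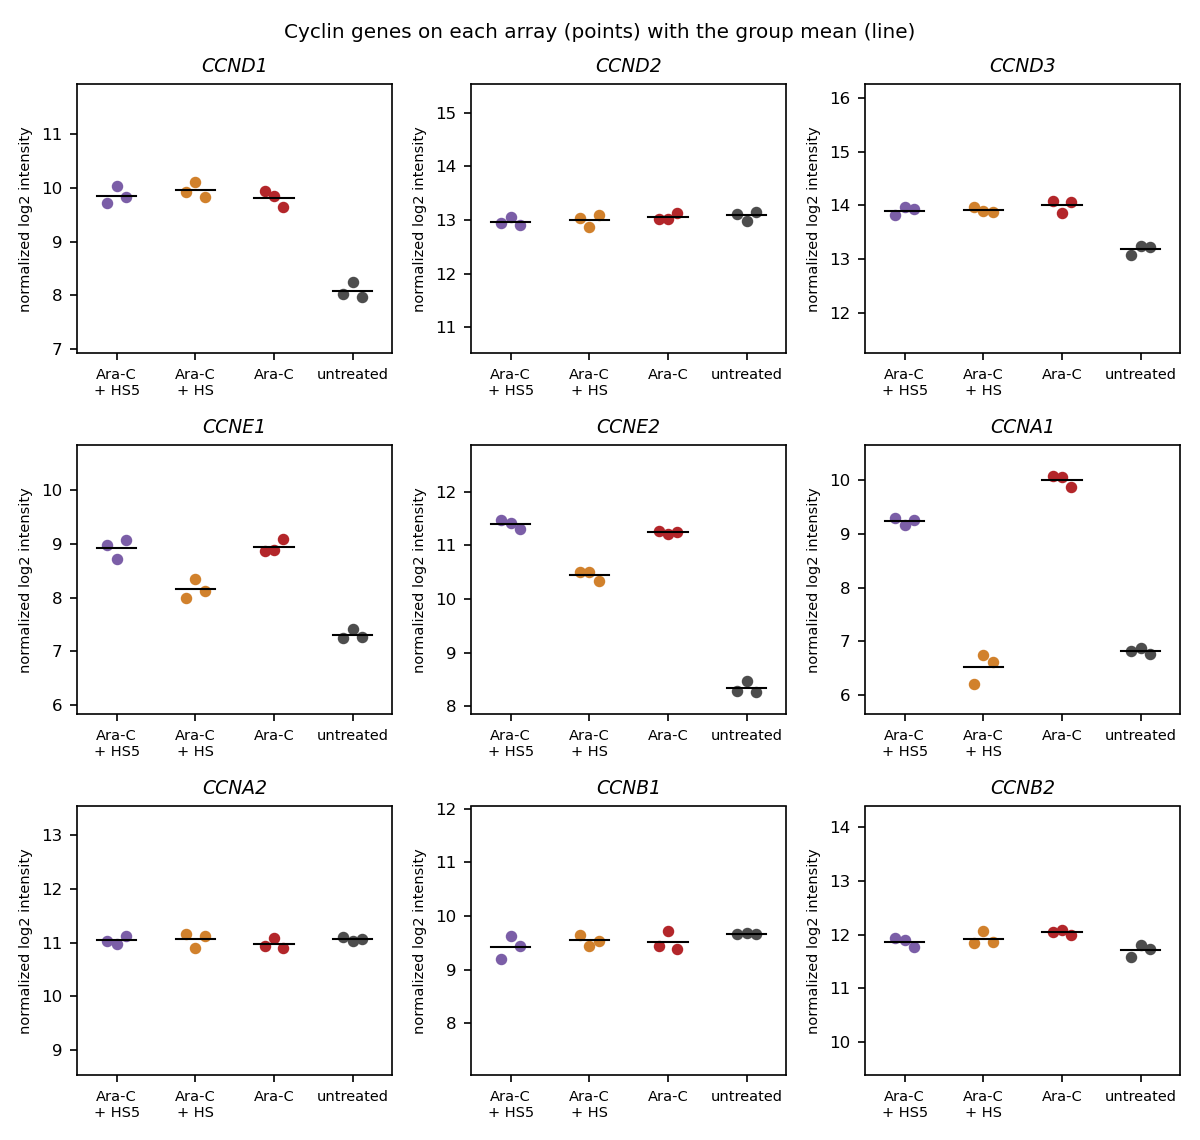
Normalized log2 intensity (vertical axis, each panel spanning 5 units) of the 9 cyclins on each of the 12 arrays, with groups from left to right Ara-C with HS5, Ara-C with HS, Ara-C and untreated. Points are arrays and lines are means of 3. CCND1, CCND3, CCNE1 and CCNE2 stand above untreated cells in all 3 Ara-C groups, CCNA1 stands above them in 2, and CCND2, CCNA2 and CCNB1 stay near 1 level.

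The E-type cyclins, the partners of CDK2 at the start of S phase, both rose with Ara-C and lay lower again when HS was present. The scanner signal of CCNE2 (ILMN_2412384) was 2801, 2923 and 2503 with Ara-C and HS5, 1676, 1297 and 1382 with Ara-C and HS, and 2751, 2645 and 2675 with Ara-C alone. In untreated cells it was 322, 350 and 326. On the normalized log2 scale these were 11.48, 11.41 and 11.31 with HS5, 10.51, 10.50 and 10.33 with HS, 11.26, 11.22 and 11.25 with Ara-C alone, and 8.29, 8.47 and 8.27 in untreated cells. The 3 Ara-C groups lay far above untreated cells, and the HS arrays lay below those of both other Ara-C groups without overlap.

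CCNE2 was higher with Ara-C by 2.898 (SE 0.09, limma adjusted p = 1.5e-10), the 32nd largest rise of the 11183 genes. Adding HS lowered it by 1.73-fold (log2 change -0.79, SE 0.09, adjusted p = 2.2e-05). Adding HS5 changed it by 0.16 (95% interval -0.04 to 0.35, adjusted p = 0.499), which was not called although the 3 arrays of each group did not overlap. Such a lack of overlap was seen for 3 of the 9 cyclins and for 19.6% of all genes in this comparison. The order of its levels was therefore Ara-C with HS5 beside Ara-C alone, then Ara-C with HS, then untreated cells.

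CCNE1 (ILMN_2374425) followed the same order at lower levels of its own probe. Its levels were 8.98, 8.72 and 9.07 with Ara-C and HS5, 8.003, 8.34 and 8.12 with Ara-C and HS, and 8.87, 8.89 and 9.09 with Ara-C alone, against 7.25, 7.42 and 7.26 in untreated cells. The arrays of Ara-C with HS lay between those of Ara-C alone and those of untreated cells, without overlap with either. Ara-C minus untreated was 1.64 (SE 0.12, limma adjusted p = 1.6e-07). Adding HS lowered CCNE1 by 1.74-fold (-0.80, adjusted p = 0.00016), and adding HS5 changed it by -0.03 (95% interval -0.28 to 0.23).

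The array holds further probes for both genes. In a fit of all kept probes, 2 other probes of CCNE1, ILMN_1795852 and ILMN_2384785, rose by 1.29 and 1.50 with Ara-C and fell by 0.57 and 0.83 on adding HS. Each of these 4 changes was called (adjusted p from 6.9e-07 to 0.00094, limma over 14939 probes, of which 49.9% were called with Ara-C and 39.1% on adding HS). Both were also higher with HS5 than with HS under Ara-C, by 0.63 and 0.79, where 40.8% of the kept probes were called. The dimmest probe of CCNE1 was detected on none of the 12 arrays, and a second probe of CCNE2 on 1, which was an array of Ara-C alone. These dim probes were not tested.

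**Figure D3:**
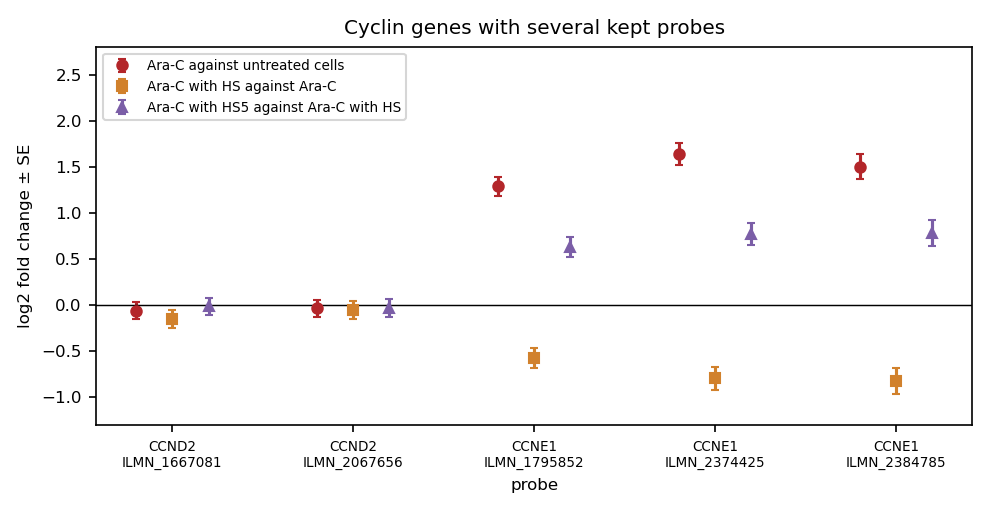
Log2 fold change with its standard error (vertical axis) for each kept probe of CCND2 and CCNE1 (horizontal axis), the cyclins with more than 1 kept probe, in Ara-C against untreated cells (circles), Ara-C with HS against Ara-C (squares) and Ara-C with HS5 against Ara-C with HS (triangles). The 3 probes of CCNE1 range from 1.29 to 1.64, from -0.83 to -0.57 and from 0.63 to 0.79 in these comparisons, while both probes of CCND2 stay near 0.

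The A-type cyclins parted. CCNA1, a cyclin known for its role in male meiosis and for high levels in myeloid leukemias, had the widest range of the 9. Its scanner signal (ILMN_2157099) was 655, 657 and 639 with Ara-C and HS5, 135, 142 and 152 with Ara-C and HS, and 1245, 1215 and 1063 with Ara-C alone, against 144, 146 and 142 in untreated cells. The normalized log2 levels were 9.29, 9.16 and 9.27 with HS5, 6.20, 6.74 and 6.62 with HS, 10.09, 10.07 and 9.89 with Ara-C alone, and 6.83, 6.88 and 6.76 in untreated cells. On this scale no pair of groups overlapped, but the arrays with HS lay just below the untreated ones. The scanner signals of these 2 groups did overlap.

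CCNA1 was higher with Ara-C by 3.19 (SE 0.12, limma adjusted p = 7.8e-10), the 16th largest rise of all genes. On adding HS it fell by 11.2-fold (log2 change -3.49, SE 0.12, adjusted p = 5.5e-10), and only 6 of the 11183 genes had a larger fall. Over the alternatives, arrays left out among them, this log2 change ran from -3.60 to -2.92, and the rise with Ara-C from 2.72 to 3.48. Ara-C with HS minus untreated was -0.30, with a 95% interval of -0.57 to -0.03, and was not called (adjusted p = 0.0646). Without HS replicate 2 it was -0.41 and called (adjusted p = 0.0214). Over the same alternatives its adjusted p ran from 0.0214 to 0.718.

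On adding HS5, CCNA1 fell by 1.71-fold (log2 change -0.77, SE 0.12, limma adjusted p = 0.0129). This call was lost at 0.0528 without Ara-C replicate 1, at 0.0716 without Ara-C replicate 2 and at 0.0517 without HS5 replicate 2, while the change stayed between -0.88 and -0.72 under every alternative. Ara-C with HS5 remained above untreated cells by 2.42 (5.35-fold, adjusted p = 5.4e-09). The order of the CCNA1 levels was thus Ara-C alone, Ara-C with HS5, and then untreated cells beside Ara-C with HS.

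CCNA2 (ILMN_1786125), the A-type cyclin of dividing somatic cells, averaged 11.04 ± 0.07 with Ara-C and HS5, 11.06 ± 0.15 with Ara-C and HS, 10.97 ± 0.10 with Ara-C alone and 11.07 ± 0.04 in untreated cells (SD, n = 3 each). The 12 arrays spanned 10.89 to 11.17 and all groups overlapped. Ara-C minus untreated was -0.10 with a 95% interval of -0.30 to 0.11, and none of the 6 comparisons was called.

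The B-type cyclins, which drive mitosis with CDK1, moved little. CCNB1 (ILMN_1712803) had 9.20, 9.62 and 9.44 with Ara-C and HS5, 9.65, 9.45 and 9.53 with Ara-C and HS, 9.45, 9.72 and 9.38 with Ara-C alone, and 9.67, 9.68 and 9.66 in untreated cells. The treated groups spread more widely than the untreated arrays and overlapped each other. Ara-C with HS and Ara-C with HS5 lay below the untreated arrays without overlap, while Ara-C alone overlapped them. Ara-C minus untreated was -0.15 (95% interval -0.41 to 0.10). Ara-C with HS5 minus untreated was -0.25 and was not called (limma adjusted p = 0.0898), but without HS5 replicate 2 it was -0.35 and called (0.0305). Over the alternatives that adjusted p ran from 0.0305 to 0.441.

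CCNB2 (ILMN_1801939) had the smallest called rise of the set. Its levels were 11.94, 11.91 and 11.78 with Ara-C and HS5, 11.85, 12.06 and 11.87 with Ara-C and HS, and 12.04, 12.09 and 11.997 with Ara-C alone, against 11.59, 11.81 and 11.73 in untreated cells. Ara-C alone and Ara-C with HS lay above untreated cells without overlap, while Ara-C with HS5 overlapped them. The difference of Ara-C minus untreated was 0.34 (SE 0.09, limma adjusted p = 0.0090), and over the alternatives it was between 0.27 and 0.49. Ara-C with HS and Ara-C with HS5 lay above untreated cells by 0.22 (adjusted p = 0.0764) and 0.17 (0.152), neither of which was called.

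The promoters of the A-type and B-type cyclins and of CCNE1 are shown to give the letters before a listed start of each gene. They were chosen after the RNA values were seen, and no relation between motifs and RNA was tested. RefSeq (GRCh38.p14) promoters were available for 6 of the 9 genes. Each sequence gives the 250 bases before a start of transcription, read 5′ to 3′ on the strand of the gene. Capitals mark matches to 3 kinds of motif, searched on both strands. These were CCAAT, the box bound by NF-Y; the cell cycle homology region (CHR), the element through which the DREAM and MuvB complexes act, searched as TTTGAA with its variants TTCGAA (central base changed), CTTGAA (the first base changed) and also TTTAAA; and the E2F core, searched as TTCCCGC as well as TTCGCGC along with TTGGCGC and finally TTGCCGC. None of the matches overlapped another.
CCNA2 (chr4:121823884-121824133, minus strand): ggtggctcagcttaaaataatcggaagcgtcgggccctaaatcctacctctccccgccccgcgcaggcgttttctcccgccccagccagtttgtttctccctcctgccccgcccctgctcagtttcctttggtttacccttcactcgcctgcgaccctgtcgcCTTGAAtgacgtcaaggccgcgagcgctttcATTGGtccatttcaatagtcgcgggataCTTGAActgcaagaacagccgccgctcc
CCNB1 (chr5:69166900-69167149, plus strand): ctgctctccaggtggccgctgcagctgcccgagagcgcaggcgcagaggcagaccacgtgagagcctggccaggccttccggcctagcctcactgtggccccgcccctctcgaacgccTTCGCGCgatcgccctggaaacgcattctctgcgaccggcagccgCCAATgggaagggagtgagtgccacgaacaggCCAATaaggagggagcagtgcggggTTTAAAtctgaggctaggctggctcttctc
CCNB2 (chr15:59104896-59105145, plus strand): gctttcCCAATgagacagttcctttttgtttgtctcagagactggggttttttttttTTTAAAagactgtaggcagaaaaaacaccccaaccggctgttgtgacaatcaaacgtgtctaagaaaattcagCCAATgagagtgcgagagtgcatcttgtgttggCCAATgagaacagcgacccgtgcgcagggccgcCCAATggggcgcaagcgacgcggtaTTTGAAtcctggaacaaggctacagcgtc
CCNE1 (chr19:29811741-29811990, plus strand): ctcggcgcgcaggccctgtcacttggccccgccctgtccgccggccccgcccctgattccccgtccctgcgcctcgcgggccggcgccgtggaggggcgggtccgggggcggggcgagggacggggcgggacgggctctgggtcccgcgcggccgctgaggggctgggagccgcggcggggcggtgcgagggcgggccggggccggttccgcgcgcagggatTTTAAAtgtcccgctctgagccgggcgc
CCNA1 (chr13:36431705-36431954, plus strand): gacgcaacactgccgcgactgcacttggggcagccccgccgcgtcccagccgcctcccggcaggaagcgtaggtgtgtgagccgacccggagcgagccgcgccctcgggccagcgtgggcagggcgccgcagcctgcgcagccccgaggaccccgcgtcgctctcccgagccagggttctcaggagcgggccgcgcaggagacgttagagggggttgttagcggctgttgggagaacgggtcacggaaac

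In CCNA2 a CCAAT box on the opposite strand began at -56 from the start, with CTTGAA at -87 and -28. CCNB1 held CCAAT at -87 and -55, TTTAAA at -30 and the E2F core TTCGCGC at -132. CCNB2 held 4 CCAAT boxes, at -244, -120, -87 and -54, with TTTAAA at -193 and TTTGAA at -29. These 3 promoters each had both a CCAAT box and a CHR sequence, a pair found in 10.2% of the 35116 promoters of the table over the same window.

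CCNE1 held TTTAAA at -28 and no CCAAT box, and the CCNA1 window held no match of any kind. That window precedes the only listed CCNA1 start, which lies inside the gene as annotated from chr13:36431517. The bases before that position were not searched. CCND3 has 3 listed starts, of which 2 held 1 CCAAT box each and none held a CHR or E2F match. Its windows likewise lay within the annotated gene. Among all promoters 32% held CCAAT, 29.1% a CHR sequence and 10.9% an E2F core. A match describes the letters only. No measurement of factor binding was made, and a motif outside these letters or this window would not be seen.

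Members of one cyclin type were set against each other by the difference of their log2 levels within each array. With Ara-C the change of CCND1 exceeded that of CCND2 by 1.76 and that of CCND3 by 0.90. CCND3 exceeded CCND2 by 0.85, CCNE2 exceeded CCNE1 by 1.26, CCNA1 exceeded CCNA2 by 3.29 and CCNB2 exceeded CCNB1 by 0.49. In each of these 6 pairs the arrays did not overlap, and the exact two-sided permutation p was 0.1, the smallest that 3 arrays against 3 allow. On adding HS only the pair CCNA1 and CCNA2 was separated, by -3.58 (exact permutation p = 0.1), while the changes of CCNE2 and CCNE1 differed by 0.00 with overlapping arrays (exact permutation p = 0.9). Over the 12 tests no adjusted p was under 0.171. Since none could fall below 0.1, these tests could not call any pair.

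The size of the rise that remained with stroma is described for the 6 cyclins raised by Ara-C. Differences among the cyclins in this share were not tested. The value with Ara-C and HS5, measured from the untreated level on the log2 scale, was 103% of the rise with Ara-C alone for CCND1 and 88.3% for CCND3. It was 98.3% for CCNE1, 105% for CCNE2, 75.8% for CCNA1 and 49.3% for CCNB2. With Ara-C and HS these shares were 109% for CCND1, 89.9% for CCND3, 51.5% for CCNE1, 72.6% for CCNE2, -9.41% for CCNA1 and 64.7% for CCNB2. The shares use the same Ara-C and untreated arrays and so are not independent of each other. For CCND1, CCND3 and CCNB2 neither stroma group differed from Ara-C alone by a called amount.

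Set directly against each other under Ara-C, HS5 and HS stroma differed for 3 of the 9 cyclins, while 43.2% of all genes were called in this comparison, with 20.9% of all genes higher with HS5. CCNA1 was higher with HS5 than with HS by 2.72 (6.59-fold, limma adjusted p = 4.2e-09), CCNE2 by 0.95 (1.93-fold, adjusted p = 4.0e-06) and CCNE1 by 0.77 (1.70-fold, adjusted p = 0.00019). For the other 6 cyclins the 95% intervals of this difference all lay within -0.38 and 0.19. The HS5 and HS arrays did not overlap for 3 of 9 cyclins, beside 51.6% of all genes.

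Against untreated cells, Ara-C with HS5 had 5 cyclins higher, where 56.1% of all genes were called, 27.5% higher and 28.6% lower. CCNE2 was higher by 3.05 (8.30-fold), CCNA1 by 2.42, CCND1 by 1.77, CCNE1 by 1.61 and CCND3 by 0.72, with limma adjusted p from 8.7e-11 to 2.3e-05. Ara-C with HS had 4 higher, where 45.1% of genes were called and 23.3% were higher. These were CCNE2 by 2.10 (4.30-fold), CCND1 by 1.87, CCNE1 by 0.84 and CCND3 by 0.73 (adjusted p from 1.2e-08 to 8.9e-05). The arrays did not overlap for 6 of 9 cyclins with HS5, beside 62.8% of genes, and for 7 of 9 with HS, beside 53.9%. Of these, CCNB1 lay below untreated cells with either stroma, and CCNA1 lay below them with HS. Both comparisons share the untreated arrays with that of Ara-C alone.

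The genes whose levels ran most closely with each cyclin over the 12 arrays were found by Pearson's r, ranked from the highest positive value. Genes that ran against a cyclin were not sought. The arrays fall into 4 groups, so r here mainly follows the group means, and it is given as a description. CCNE2 ran with ALOX5AP and PTGS1 at r = 0.997 each, and 269 genes had an r above 0.95 with it. CCNE1 ran with ATP6V1A (0.992) and with CDKN1A (0.991), the gene of the CDK inhibitor p21, and 219 genes were above 0.95. CCND1 ran with GPR137B (0.990) and CENTD3 (0.989), CCNA1 with MOCOS (0.989) and ANXA5 (0.987), and CCND3 with TREML3 (0.978) and ITGAM (0.976). CCNB2 reached 0.907 with CETP and 0.899 with UPB1, and CCNB1 0.890 with DPRXP4 and 0.880 with MRPL19. CCND2 reached 0.831 with ANGEL2 and 0.826 with GOLGA8G, and CCNA2 0.811 with RHOT2 and 0.810 with PREI3. None of these 4 cyclins had a gene above 0.95. In untreated cells MOCOS, TREML3, PTGS1, CETP and UPB1 averaged below the lowest level of any detected probe on those arrays. With Ara-C and HS this held for MOCOS.

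Around the cyclins, the genes of the same machinery were counted in lists. These counts are read beside the shares of all genes called, 51.8% with Ara-C, 42.1% on adding HS and 0.903% on adding HS5. Of the 14 other cyclins tested (of 15 listed), 1 rose and 4 fell with Ara-C, so 35.7% were called, a smaller share than of all genes. CCNG2, an atypical cyclin linked to growth arrest, rose by 0.87, while CCNY fell by 0.51, CCNT2, a partner of the transcription kinase CDK9, by 0.36, and CCNH, the partner of CDK7, by 0.27. Their median change was -0.18, against 0.82 for the cell-cycle cyclins. On adding HS 21.4% were called, with CCNY rising by 0.37 and CCNG2 falling by 0.40. The other change called there was that of CCNG1, a p53 target named after its values were seen, which rose by 0.57 (limma adjusted p = 0.00028).

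Of the 5 CDKs tested (of 6 listed), CDK1, given as CDC2 on the array, rose by 0.52 and CDK2 by 0.45 with Ara-C, and CDK6 fell by 0.28. CDK4 had 0.00 and CDK7 -0.08. The share called was 60%, near that of all genes. None of the 5 passed on adding HS, where 2 had an unadjusted p under 0.05, or on adding HS5, where 0 did (limma).

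Of the 6 CDK inhibitors tested (of 7 listed), 3 rose with Ara-C and none fell, a share of 50% and so near the background. CDKN1A, which encodes the p53-induced inhibitor p21, averaged 10.91 with Ara-C and HS5, 8.48 with Ara-C and HS, 10.73 with Ara-C alone and 6.10 in untreated cells. It was lower with HS than with Ara-C alone by 2.25 on the log2 scale, the only called change of the list in that comparison (16.7% of the list). CDKN2D, encoding the CDK4 and CDK6 inhibitor p19, rose 1.99-fold with Ara-C (limma adjusted p = 1.2e-05). CDKN1C, encoding p57, was not detected in untreated cells and was at least 1.17-fold higher with Ara-C, measured against the lowest detected level. CDKN1B, encoding p27, had 0.16 (adjusted p = 0.147).

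Of 7 tested genes for CDK-activating phosphatases, inhibitory kinases and CKS subunits, 4 rose with Ara-C and 1 fell, so 71.4% were called. The activating phosphatase genes CDC25B, CDC25A and CDC25C rose by 0.64, 0.49 and 0.37, and the inhibitory kinase gene PKMYT1 by 0.56. On adding HS 3 of the list (42.9%, close to the share of all genes) fell, CDC25B by 0.37 and CDC25A by 0.30 among them.

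Of the 12 tested genes of the RB and E2F family (of 13 listed), 7 rose and 3 fell with Ara-C (83.3% called), and their median was 0.37. E2F7 and E2F8, repressive members, rose by 1.59 and 1.34, and the activator E2F2 rose by 1.49. E2F5, which works with RB relatives in resting cells, fell by 1.03, and RB1 rose by 0.36. E2F7 was detected on 2 of the 3 untreated arrays. E2F1 was detected on too few arrays to be tested. On adding HS 2 of the family rose and 3 fell (41.7%, close to the share of all genes), with E2F2 and E2F8 each lower by 0.46.

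Of 9 tested genes of FOXM1, MuvB and NF-Y (of 10 listed), regulators of mitotic transcription, FOXM1 alone rose with Ara-C (by 0.60) and NFYC alone fell (by 0.41). The share called was 22.2%, below the background. LIN54, the MuvB subunit that binds the CHR, had 0.27 (limma adjusted p = 0.0633), and the histone-binding subunit RBBP4 had 0.29 (0.0519). On adding HS 1 rose and 2 fell (33.3%). Of the 18 tested genes for cyclin ubiquitin ligases (of 23 listed), 4 rose and 8 fell with Ara-C (66.7% called). The falls included CDC20, the activator of the anaphase-promoting complex, by 0.59, and its subunits ANAPC7 by 0.71 and ANAPC1 by 0.62, while FBXO5, its inhibitor, rose by 0.65. On adding HS 3 rose and 3 fell (33.3%), ANAPC1 rising by 0.44.

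Of 8 proliferation markers, 3 rose with Ara-C, namely PCNA by 0.51, TYMS by 0.47 and TOP2A by 0.46, and 2 fell, PLK1 by 0.71 among them, which makes 62.5% called. On adding HS 1 fell (12.5%). On adding HS5, none of the genes in these 8 lists was called by limma, where 0.903% of all genes were called. The genes with an unadjusted p under 0.05 there were 2 of the 14 other cyclins, 1 CDK inhibitor, 1 RB or E2F gene, 2 of the FOXM1 list and 1 ubiquitin ligase gene, and none of the CDKs, their regulating enzymes or the proliferation markers.

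**Figure D4:**
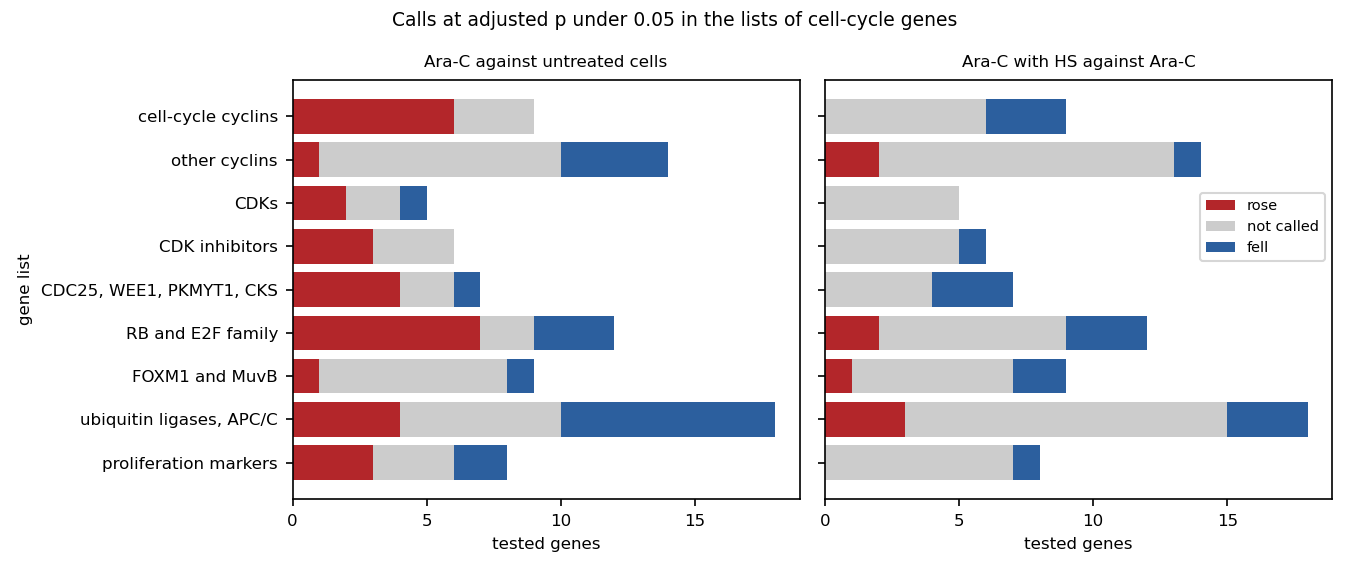
Number of tested genes (horizontal axis) that rose, were not called or fell at an adjusted p under 0.05 in each list of cell-cycle genes (vertical axis), for Ara-C against untreated cells and for Ara-C with HS against Ara-C. With Ara-C 6 of 9 cyclins and 7 of 12 RB and E2F genes rose, and 8 of 18 ubiquitin ligase genes fell.

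Markers of cell types moved alongside the groups. The values are sums over each list of intensities after background correction and normalization. Of 22 markers of stromal fibroblasts 14 were detected on none of the 12 arrays, COL1A1, COL3A1 and FN1 among them. COL6A1, named after its values were seen, was detected on 2 arrays with Ara-C and HS5 and on 2 with Ara-C and HS. It was detected on 0 with Ara-C alone and 0 in untreated cells. Its means in these groups, in that order, were 5.79, 5.56, 5.35 and 4.76. The other way, COL5A1 and PDGFRB were detected on 2 arrays with HS5 and on every array with Ara-C alone. The sum of the list was 2149 to 2476 with Ara-C and HS5, 2362 to 2460 with Ara-C and HS, 2306 to 2442 with Ara-C alone and 933 to 1018 in untreated cells. The stroma groups overlapped Ara-C alone in this sum. ACTA2, the smooth muscle actin gene, had the highest level of the list and made up most of the sum in each Ara-C group. The sum there thus mainly shows that 1 gene. ACTA2 had 10.58 with Ara-C and HS, 10.64 with Ara-C alone and 8.89 in untreated cells, and was not called on adding HS. With Ara-C alone against untreated cells, 5 of the 8 genes tested rose and 1 fell (75% called, beside 51.8% of all genes). Of the 8 genes tested, 2 rose and 1 fell on adding HS (37.5% called, beside 42.1% of all genes). None was called on adding HS5, beside 0.903% of all genes. With genes named after their values were seen, COL5A1 averaged 7.11 with Ara-C and HS against 6.08 with Ara-C alone, PDGFRB 6.49 against 6.003, and SPARC 6.48 against 7.50.

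The B-cell precursor sum was 3213 to 3689 with Ara-C and HS5, 6872 to 7093 with Ara-C and HS, 4165 to 4425 with Ara-C alone and 6766 to 7216 in untreated cells. The sum of T and NK cell markers was 6937 to 7717 with HS5, 3660 to 4583 with HS, 5915 to 6649 with Ara-C alone and 2597 to 2727 in untreated cells. Of its 10 genes, 5 were detected on none of the 12 arrays (CD3E, CD3G and CD2 among them). CD3D and NKG7 were detected on all 3 arrays of each group, at 11.84 and 11.01 with Ara-C alone. GZMA was detected on all 3 arrays of each group except Ara-C with HS, and CD8A on all 3 of each except untreated cells. The granulocyte precursor sum was 45970 to 48130 with HS5, 49800 to 53040 with HS, 47770 to 52780 with Ara-C alone and 59750 to 66320 in untreated cells.

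MPO had the highest level of the granulocyte list, at 15.04 with Ara-C and HS and 14.98 with Ara-C alone, and was not called on adding HS. Of the 12 genes of that list, 75% were called on adding HS, beside 42.1% of all genes. On adding HS 5 of the list rose and 4 fell, so its sum does not show its members' changes. Among them, named after their values were seen, CSF3R averaged 12.25 with Ara-C and HS against 10.35 with Ara-C alone. RNASE2 averaged 10.41 against 12.24, LYZ 8.33 against 10.34 and RNASE3 7.45 against 9.41 in the same groups. On adding HS 10 of the 11 tested B-cell precursor markers rose, beside 21.6% of all genes. The 4 tested T and NK markers fell there, beside 20.5% of all genes. With Ara-C alone against untreated cells, these 4 rose, beside 25.5% of all genes. Of the 11 B-cell precursor markers 7 fell and 2 rose in that comparison, beside 26.3% of all genes lower. Of the 12 granulocyte markers 3 rose and 4 fell. The B-cell precursor markers moved against CCNA1, CCNE1 and CCNE2 between Ara-C with HS and Ara-C alone, the T and NK markers with them, and the granulocyte and fibroblast markers in both directions. Their part in the result was not tested.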

How the data were processed

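Each sample was measured on 1 array. Per the file headers, the scanner output gives for every probe an intensity (mean bead signal) and a detection p-value, and the deposited intensities showed no normalization between arrays. The authors also deposited log2 values, which matched the log2 of quantile-normalized signals, without background correction, to within 0.000167. R 2.9.2 is named per the submitters' processing notes.

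Here the signals were background-corrected and quantile-normalized with the neqc method of limma 3.58.1 in R 4.3.3 (offset 16, log2). Probes with a detection p under 0.01 on at least 3 arrays were kept (14939 of 48800), and the kept probe of highest mean stood for each symbol. From 13064 to 14898 probes per array were detected, and the number of arrays limits the precision. One limma model with a mean per group and 8 residual degrees of freedom gave 6 contrasts, 2-sided, with Benjamini-Hochberg adjustment over 11183 genes and calls under 0.05. Intervals are 95%. Gene pairs were compared by exact permutation tests. The procedure was tested on simulated data.

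All 9 cyclins are named. From each list, the 4 genes with the smallest adjusted p with Ara-C are named, besides CDKN1A, CDK1, CDK2, CDK4, CDK6, E2F1 and RB1. For each cyclin the 2 genes with the highest Pearson's r were taken. The cyclins, lists and tests were chosen with earlier results of these data known. Alternatives were background correction, scaling, filter, probe choice, samples fitted, the authors' table, a replicate block, a stricter threshold and each array left out. Coordinates of probes were not used.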

Additional observations from a re-analysis of the deposited data

Results flagged for a closer look

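The effect of HS5 minus the effect of HS under Ara-C, tested as Ara-C with HS5 against Ara-C with HS in the limma model, differed for 3 of the 9 cyclins. The difference was 2.72 on the log2 scale for CCNA1, 0.95 for CCNE2 and 0.77 for CCNE1. For each of these genes the 3 HS5 arrays lay above the 3 HS arrays. Groups without overlap were seen for 51.6% of all genes in this comparison. The effects share the arrays of Ara-C alone, which cancel in the difference.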

How the results depend on the processing

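Of the 54 values of a cyclin in a comparison, 51 kept their side of the threshold under all 23 alternatives, and no called change reversed. The exceptions were CCNA1 on adding HS5, CCNA1 with Ara-C and HS against untreated cells, and CCNB1 with Ara-C and HS5 against untreated cells, each given beside its result. At an adjusted p under 0.01 no cyclin was called on adding HS5 (0, against 1 at 0.05), since CCNA1 had 0.0129. The count of all genes called on adding HS5 was 101. It was 205 without background correction and 205 with the authors' table, 221 by normexp with offset 50, 62 in a fit of the 2 groups alone and 23 at 0.01. At 0.01, 3082 genes were called on adding HS, against 4703 at 0.05. With each array left out in turn, cyclins called on adding HS5 numbered 0 to 1 and all genes 28 to 106. The cyclins called against untreated cells numbered 4 to 5 with Ara-C and HS and 5 to 6 with Ara-C and HS5.

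Replicate numbers of the titles did not pair the samples, with correlations of deviations of -0.0458 to 0.0253 at the same number and -0.0409 to 0.0389 at different numbers. With the replicate block 58 genes were called on adding HS5, and no count of cyclins changed. Shifting arrays to a common median in place of quantile normalization moved the median change of all genes to 0.19 with Ara-C, -0.11 on adding HS5 and 0.13 with Ara-C and HS against untreated cells, and left every cyclin call as it was. Higher and lower calls were then 4067 and 1259 with Ara-C (2851 and 2942 by quantiles), 1583 and 2410 on adding HS (2412 and 2291), and 34 and 65 on adding HS5 (59 and 42). Against untreated cells they were 3296 and 1077 with Ara-C and HS (2606 and 2442), and 3502 and 2123 with Ara-C and HS5 (3074 and 3197). With Ara-C, before this shift is taken off, CCNB2 then rose by 0.49 and CCND3 by 0.86, while CCND2, CCNA2 and CCNB1 had 0.09, 0.11 and 0.05 and were not called.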
